A study of Mus musculus with 21 samples.

Results

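In cultured mouse fibro-adipogenic progenitors (FAPs), 616 stretches of the autosomes carried H3K9me2 in every library of both genotypes and lay outside every LaminB1 domain. They were found by cutting the autosomes into 1 kb bins, keeping bins inside an H3K9me2 domain in all 6 H3K9me2 libraries (3 Prdm16, 3 WT) and in neither LaminB1 library (1 Prdm16, 1 WT), and joining bins that touched. The 616 regions held 132.065 Mb, or 5.41% of the 2441.83 Mb of autosomal bins and 45.4% of the 290.886 Mb of constant H3K9me2. For scale, the domains of all 8 libraries merged into 1272 autosomal regions. Because the regions were chosen from the H3K9me2 and LaminB1 domains themselves, their coverage, length and edges are given as a description, with no test.

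The Prdm16 group came from adult Prdm16Flox/Flox::PdgfrαCre-ERT/+ mice, whose tamoxifen-dependent Cre is driven from Pdgfrα, and the WT group from Prdm16Flox/Flox::Pdgfrα+/+ mice, which carried the same floxed alleles and no Cre. Tamoxifen was given to both over 5 days, muscle was injured with cardiotoxin 7 days later, and FAPs taken 5 days after injury were cultured for 4 to 5 days. RNA was counted in 2 Prdm16 and 3 WT libraries. LaminB1 had 1 library per genotype, so no LaminB1 value has a replicate check, and whether replicates came from separate animals is not given in the labels. FAPs are stromal progenitors of muscle, known for multiplying after damage and for forming fat and scar tissue. All 8 FAP markers of the list used here, among them Pdgfra, Ly6a and Col1a1, averaged at least 1 CPM (read counts scaled to library size), and their summed level was 4855 and 4973 CPM in Prdm16 libraries, against 2897 to 5277 CPM in WT libraries.

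The RNA libraries are named by their labels, which some measurements did not follow. The p-values in the authors' deposited table were within 1% of p-values computed after exchanging WT replicate 3 with Prdm16 replicate 1 for 14523 of 14523 genes, and within 1% of those computed as labelled for 167. The raw counts of Prdm16 itself were 91 and 86 in the libraries labelled Prdm16, against 171, 94 and 59 in those labelled WT, so the ranges overlapped. They are not scaled to the library totals given below, so their order does not rank the libraries by level. The deleted part was not counted separately. Xist, the RNA of the inactive X chromosome in female cells, had 4116 and 15 counts in the libraries labelled Prdm16, against 3483, 3670 and 4652 in those labelled WT, so Prdm16 replicate 2 stood apart from the other 4. The Prdm16 libraries totalled 8448654 and 5839587 counts, against 10657791, 7053114 and 10284864 in the WT libraries.

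H3K9me2, the dimethylation of lysine 9 of histone H3, is a mark of repressed chromatin written in large part by the methyltransferases G9a and GLP. Much of it lies in broad domains at the nuclear periphery, where lamins such as LaminB1 and inner membrane proteins hold silent chromatin. H3K9me2 also covers silent genes in the nuclear interior, and the regions described here are the constant H3K9me2 for which no LaminB1 domain was called.

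The promoters below show which sequences lie under the constant domains, from 250 bases before to 50 bases after the RefSeq start (GRCm38.p6, printed 5′ to 3′). Actc1, which encodes cardiac α-actin, and Gjd2, which encodes the neuronal gap junction protein connexin 36, share 1 region. Zfp518b encodes a zinc finger protein whose human counterpart is known to bind the H3K9 methyltransferase G9a, and Mcpt8 encodes a basophil protease. In the first 4 sequences the capitals mark each CpG.
Actc1, chr2:114052826-114053125, minus strand: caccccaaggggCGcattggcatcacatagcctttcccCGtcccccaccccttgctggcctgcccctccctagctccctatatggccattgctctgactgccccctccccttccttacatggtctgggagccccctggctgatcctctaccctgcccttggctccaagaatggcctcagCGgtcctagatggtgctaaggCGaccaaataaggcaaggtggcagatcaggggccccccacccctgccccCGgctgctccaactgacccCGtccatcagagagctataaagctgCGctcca
Gjd2, chr2:114013570-114013869, minus strand: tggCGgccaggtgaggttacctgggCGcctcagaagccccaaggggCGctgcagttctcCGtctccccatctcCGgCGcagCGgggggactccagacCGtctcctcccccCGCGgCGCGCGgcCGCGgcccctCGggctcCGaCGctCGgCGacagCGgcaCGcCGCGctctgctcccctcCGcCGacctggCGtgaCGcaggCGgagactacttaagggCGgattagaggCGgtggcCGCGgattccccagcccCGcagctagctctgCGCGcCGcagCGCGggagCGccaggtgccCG
Zfp518b, chr5:38684777-38685076, minus strand: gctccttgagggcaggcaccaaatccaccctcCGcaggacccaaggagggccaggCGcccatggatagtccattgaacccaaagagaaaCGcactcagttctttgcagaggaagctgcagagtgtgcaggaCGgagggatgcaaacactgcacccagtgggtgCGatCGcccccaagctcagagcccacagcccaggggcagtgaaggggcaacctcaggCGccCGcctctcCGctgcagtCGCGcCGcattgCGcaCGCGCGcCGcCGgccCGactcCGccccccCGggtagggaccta
Mcpt8, chr14:56085148-56085447, minus strand: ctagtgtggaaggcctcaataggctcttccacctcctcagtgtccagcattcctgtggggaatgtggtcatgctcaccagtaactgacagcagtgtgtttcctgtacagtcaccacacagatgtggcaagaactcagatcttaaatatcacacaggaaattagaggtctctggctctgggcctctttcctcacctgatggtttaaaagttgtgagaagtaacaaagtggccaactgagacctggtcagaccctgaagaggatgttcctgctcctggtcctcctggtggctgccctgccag
In the promoters of Myh1 and Myh4, the fast adult IIx and IIb myosin heavy chains of skeletal muscle, the capitals mark TATAAA wherever it occurs in the printed window.
Myh1, chr11:67199852-67200151, plus strand: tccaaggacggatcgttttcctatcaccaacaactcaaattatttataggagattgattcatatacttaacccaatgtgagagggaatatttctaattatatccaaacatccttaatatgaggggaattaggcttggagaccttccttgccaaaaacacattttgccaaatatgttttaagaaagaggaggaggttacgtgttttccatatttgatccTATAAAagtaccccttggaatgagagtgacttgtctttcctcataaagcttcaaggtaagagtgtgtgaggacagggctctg
Myh4, chr11:67237562-67237861, plus strand: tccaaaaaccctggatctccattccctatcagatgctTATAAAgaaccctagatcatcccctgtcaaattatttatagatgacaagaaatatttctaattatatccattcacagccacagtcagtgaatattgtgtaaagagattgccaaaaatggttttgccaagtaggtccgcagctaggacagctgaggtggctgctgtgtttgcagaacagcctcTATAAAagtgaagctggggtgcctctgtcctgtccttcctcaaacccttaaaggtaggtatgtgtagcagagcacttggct
The regions thus span promoters with 41 CpG (Gjd2), 21 (Zfp518b), 7 (Actc1), 3 (Myh1), 1 (Myh4) and 0 (Mcpt8).

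The regions ran from 1 to 1836 kb, with a median of 138 kb and an interquartile range of 40 to 284 kb. Of them, 51 were shorter than 10 kb, 69 reached at least 500 kb and held 53.482 Mb, and 15 reached at least 1000 kb. Regions lay on all 19 autosomes, from 3.55% of chromosome 10 to 9.05% of chromosome 12. Of their 1232 edges, 758 were ends of H3K9me2, 473 were borders of a LaminB1 domain and 1 was both. Both edges were ends of H3K9me2 in 215 regions with a median of 255 kb, which held 70.704 Mb (53.5% of the length). A single edge lay at LaminB1 in 328 regions with a median of 54.5 kb (46.205 Mb), and both did in 73 regions with a median of 136 kb (15.156 Mb). Of the 474 edges at LaminB1, 27 met a domain called in Prdm16 alone, 440 (92.8%) a domain called in WT alone and 7 a domain called in both. The LaminB1 domains covered 305.236 Mb of the autosomes in the Prdm16 library, against 646.54 Mb in the WT library, and the part of this difference in the edges was not tested.

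**Figure D1:**
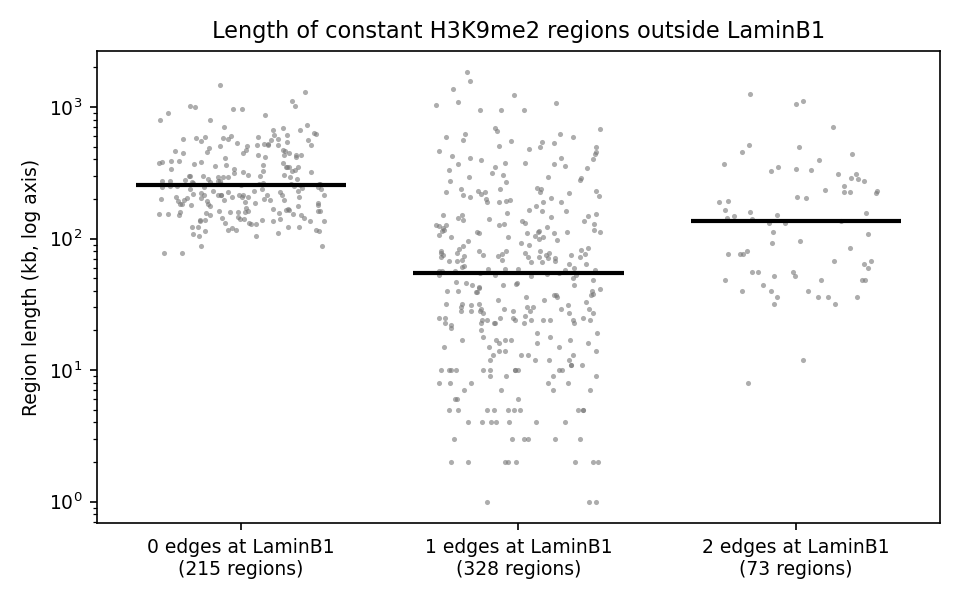
Length of each of the 616 regions (kb, log axis) by the number of its edges at a LaminB1 domain. Points are regions and bars are medians: 255 kb with 0 such edges, 54.5 kb with 1 and 136 kb with 2, and most of the shortest regions have 1.

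Isolated regions, with no LaminB1 domain within 100 kb in either genotype, numbered 199 and held 65.238 Mb (49.4% of the length), with a median of 255 kb. The nearest LaminB1 domain of either library was at least 1 Mb away from 103 regions with 34.392 Mb, and the largest distance was 8412 kb. Constant H3K9me2 formed 579 unbroken blocks, of which 215 were free of LaminB1, 99 lay wholly within it and 265 lay partly within it. The blocks free of LaminB1 had a median of 255 kb and the blocks with LaminB1 a median of 411 kb. Just outside the rule, 105.865 Mb carried H3K9me2 in 5 of 6 libraries and no LaminB1. The library that lacked it there was Prdm16 replicate 1 in 64.376 Mb, Prdm16 replicate 2 in 1.746 Mb, Prdm16 replicate 3 in 7.946 Mb, WT replicate 1 in 2.916 Mb, WT replicate 2 in 9.021 Mb and WT replicate 3 in 19.86 Mb. Constant H3K9me2 with LaminB1 in Prdm16 alone held 1.221 Mb, that with LaminB1 in WT alone 98.591 Mb and that with LaminB1 in both 59.009 Mb.

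The longest region was 1836 kb on chromosome 1 (75720001 to 77556000, mm10) and held 1 protein-coding gene, Epha4, an ephrin receptor used in axon guidance. The next was 1586 kb on chromosome 5 (50476001 to 52062000) and held 92% of the body of Ppargc1a, the coactivator PGC-1α known for driving mitochondrial biogenesis. The third, 1470 kb on chromosome 9 (33276001 to 34746000), held 47% of Kirrel3, a synaptic adhesion gene. The others among the 8 longest lay over or beside Nova1, a neuronal splicing factor of which 3% was inside, over Zfp518b, Clnk and Hs3st1 on chromosome 5 (38646001 to 39945000), over 47% of Rbfox1, another neuronal splicing factor, over Eno1b on chromosome 18, and over 73% of the neuronal gene Astn2 on chromosome 4. The longest isolated regions were the Kirrel3 and Astn2 regions, then 1014 kb over 86% of Dpyd, which encodes the enzyme that starts pyrimidine breakdown, and 1008 kb over the muscarinic acetylcholine receptor Chrm2.

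The regions lay in the longer domains of each library. The rule favours this, since a longer domain is likelier to hold a shared bin, so nothing is read from it. The H3K9me2 domains that held a region had medians of 597, 972 and 924 kb in Prdm16 replicates 1, 2 and 3, against 954, 708 and 828 kb in WT replicates 1, 2 and 3. Over all domains the medians were 315, 453 and 474 kb in Prdm16 libraries, against 378, 354 and 459 kb in WT libraries. The authors' score for these domains, ranked within its own list, had median percentiles of 74.5, 78.3 and 76.8 in Prdm16 libraries, against 80.1, 76.6 and 72.6 in WT libraries. The regions took up 26.4%, 16.5% and 19.5% of the autosomal domain length in Prdm16 libraries, against 15.0%, 23.5% and 17.0% in WT libraries. The highest share was in Prdm16 replicate 1, whose domains had the smallest total, 574.617 Mb.

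The end of a region at an H3K9me2 edge was mostly set by a single library. Of the 758 such edges, 604 coincided with the domain end of exactly 1 library, and the ends of all 6 libraries lay within 9 kb of each other at 96 edges (12.7%). The median distance between the nearest and farthest of the 6 ends was 126 kb. Past the edge the domain ran on for a median of 9, 57 and 42 kb in Prdm16 replicates 1, 2 and 3, against 30, 18 and 15 kb in WT replicates 1, 2 and 3. Prdm16 replicate 1 had the shortest and Prdm16 replicate 2 the longest extension, so the genotypes overlapped. All Prdm16 domains ended before any WT domain at 10 of the 758 edges (1.32%), against a background of 2.85% of the 1158 edges of all constant H3K9me2 blocks. All WT domains ended before any Prdm16 domain at 42 edges (5.54%), against a background of 4.4%. The rule used these domains, so nothing is read from either share.

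**Figure D2:**
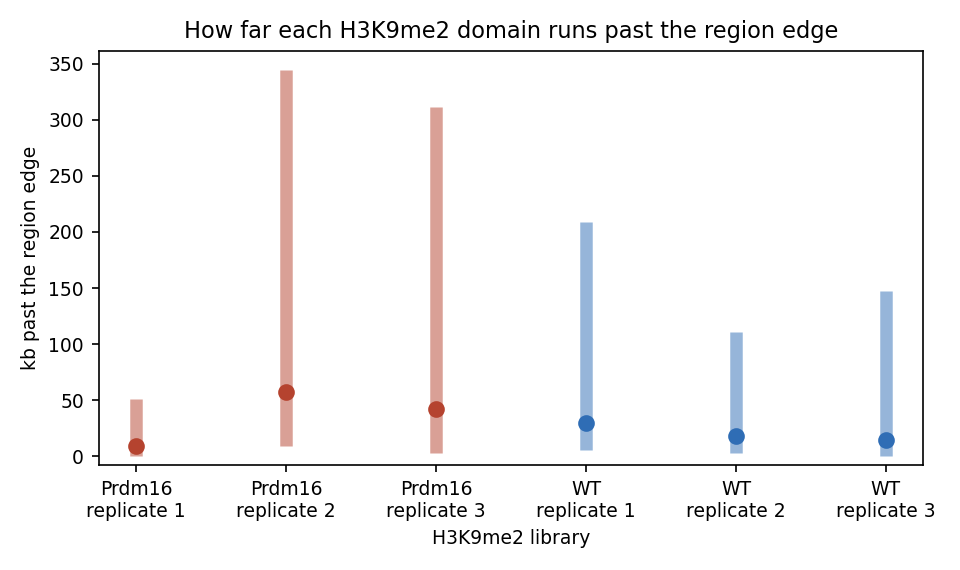
Distance (kb) that the domain of each H3K9me2 library runs on past the 758 region edges formed by H3K9me2, with points for medians and bars for interquartile ranges. Prdm16 replicate 1 has the lowest median, 9 kb, and Prdm16 replicate 2 the highest, 57 kb, with the 3 WT libraries between 15 and 30 kb.

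The regions were poor in genes. Counting a gene as inside when 0.5 or more of its body was, they held 1144 of 47042 autosomal genes, including 250 of 20665 protein-coding genes (1.21%), 453 of 12408 long non-coding RNA genes (3.65%), 321 of 8884 pseudogenes (3.61%) and 14 of 1136 microRNA genes (1.23%). Protein-coding genes had a density of 1.89 per Mb, beside 2.07 where constant H3K9me2 overlapped LaminB1 in WT alone, 2.53 where it overlapped LaminB1 in both, 2.88 where H3K9me2 without LaminB1 was present in 1 to 5 libraries, 13.3 where neither mark was called and 8.46 over all autosomal bins. No protein-coding gene touched 333 regions with 58.219 Mb (44.1% of the length). Long genes were frequent, with 47 of 250 (18.8%) spanning at least 200 kb, beside 945 of all 20665 (4.57%). This long share was 19.1% and 21.5% in constant H3K9me2 with LaminB1 in WT alone and in both.

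Among the families listed, those with the largest shares inside belong to skin, muscle and neurons, beside 1.21% of all protein-coding genes. Family shares were not computed for the other chromatin classes, so they are not read as particular to the regions. Keratins and keratin-associated proteins, the structural proteins of hair and skin, had 15 of 112 autosomal members inside (13.4%), all in neighbouring regions of chromosome 11. Sarcomere genes had 6 of 51 (11.8%): Actc1, Myh1, Myh2, Myh4, Myh8 and Myh15. Of these, Myh1, Myh2, Myh4 and Myh8 share a single region. Synaptic adhesion genes had 4 of 37 (10.8%): Nrxn3, Opcml, Dscam and Lrrtm1. Glutamate receptors had 2 of 27 (Grm8 and Gria2), and GABA, glycine and acetylcholine receptors 3 of 41 (Chrm2, Chrm3 and Gabrb2). Olfactory receptors had 20 of 1105 (1.81%), and zinc finger genes 3 of 422 (0.711%). No member of the lists of potassium channels (95 genes), protocadherins (67), cytochrome P450 enzymes (100), collagens (42), FAP markers (20), H3K9 methylation enzymes and readers (15) or lamina proteins (11) lay inside. With so low a share over all genes, absence from lists of this size is not read as a result. Among regulators, Eya1 of the myogenic list (1 of 16) and Ppargc1a of the fat list (1 of 23) lay inside.

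Several regions matched a tandem gene cluster. Regions with at least 4 protein-coding genes numbered 9 and held 74 genes, of which 5 averaged at least 1 CPM: Myh1, Myh8, Mcpt8, Gzme and Cd200. The myosin region, 213 kb on chromosome 11 (67128001 to 67341000), covered Myh2, Myh1, Myh4 and Myh8 completely and 31.2% of Myh13, the extraocular myosin. The embryonic myosin Myh3 (67078273 to 67102291) lay just before it with 0% inside. The domain that held this region measured 222, 228 and 225 kb in Prdm16 libraries, against 219, 222 and 225 kb in WT libraries, so all 6 ended close together. LaminB1 lay 364 kb away in Prdm16 and 260 kb away in WT.

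The mast cell protease and granzyme region, 276 kb on chromosome 14 (55989001 to 56265000), held 13 genes for secreted serine proteases of mast cells, basophils and killer lymphocytes, from Mcpt1 to Gzmb. Its domain measured 300, 315 and 312 kb in Prdm16 libraries, against 318, 312 and 291 kb in WT libraries. An olfactory receptor region of 255 kb on chromosome 11 (49275001 to 49530000) held 12 receptor genes, 6 of them with 0 counts in every library. Its left end was the same in all 6 libraries, at the 3 kb step of the H3K9me2 domains. The type I hair keratin genes Krt31 to Krt36 lay in a region of 108 kb on chromosome 11 (100008001 to 100116000), and 17 genes of the Krtap4 cluster a neighbouring region of 239 kb. A WT LaminB1 domain lay between those regions, 16 kb from the keratin region, while the nearest Prdm16 LaminB1 domain was 6192 kb away.

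**Figure D3:**
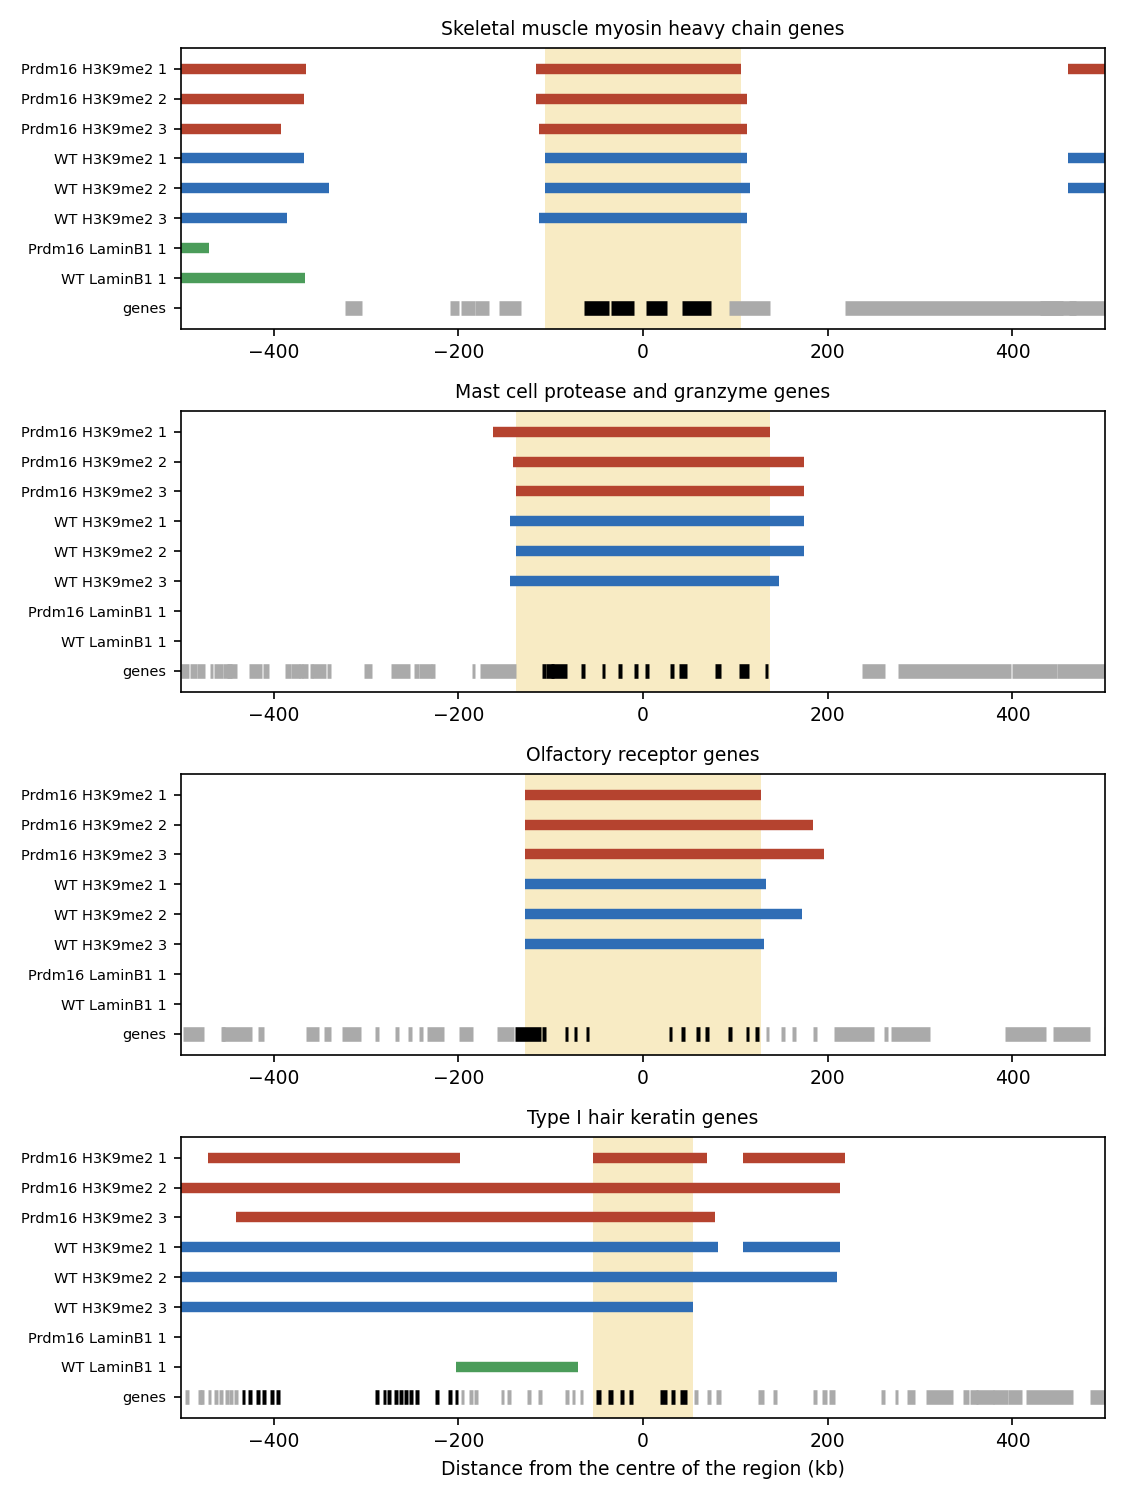
Domains of the 6 H3K9me2 and 2 LaminB1 libraries and protein-coding genes within 500 kb of the centres of 4 regions (distance in kb). Red and blue bars are Prdm16 and WT H3K9me2 domains, green bars are LaminB1 domains, the shaded band is the region, and genes are black where 0.5 or more of the body lies in a constant region outside LaminB1 and grey elsewhere. The domain over the myosin genes measures 219 to 228 kb in all 6 libraries, and the WT LaminB1 domain beside the hair keratins ends 16 kb from that region.

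Promoters in the regions held few CpG. The median was 3 CpG per 300 bases over 217 starts of 191 protein-coding genes, with 27.2% holding at least 10, beside a median of 14 and 57.9% over 20085 starts of all autosomal genes. The median was 3 with LaminB1 in WT alone, 3.5 with LaminB1 in both and 17 where neither mark was called. TATAAA on the sense strand within 55 bases to 1 base before the start, searched without other motifs, occurred at 27 of 217 starts (12.4%), beside 3.35% of all autosomal starts, 5.81% with LaminB1 in WT alone and 1.43% with LaminB1 in both. It occurred at 5.9% of starts with H3K9me2 in 1 to 5 libraries and no LaminB1. The share was 8.5% with LaminB1 in either genotype and no H3K9me2, and 2.3% where neither mark was called. Of the 27 genes, 23 lay in the 9 gene clusters, most of them keratins and keratin-associated genes, which are related copies of each other. Myh1 and Myh4, printed above, are 2 of them. The other 4 were Cxcr4, Crp, Ces3b and Cdcp3. These promoters are the base composition available here, since no genome sequence was at hand for the regions themselves.

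Of the 14 microRNA genes inside, 13 had mature sequences, 19 in all, with 19 distinct seeds. The 4 below are shown as examples of hairpins under the domains, with and without a host gene. MiR-490 lies within Chrm2 and miR-592 within the glutamate receptor gene Grm8, neither of which averaged 1 CPM. MiR-204 lies within the channel gene Trpm3, which averaged 2.41 CPM, and miR-135a on chromosome 10 in no host. The capitals mark the seed, bases 2 to 8 (RefSeq, GRCm38.p6).
mmu-miR-490-3p: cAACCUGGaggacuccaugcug
mmu-miR-592-5p: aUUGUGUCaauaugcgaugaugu
mmu-miR-204-5p: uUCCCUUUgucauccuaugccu
mmu-miR-135a-5p: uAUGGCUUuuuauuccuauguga
None of the 14 hairpin genes reached a mean of 1 CPM in the polyadenylated RNA, which does not measure mature microRNAs.

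Most protein-coding genes in the regions gave little RNA. Of the 250, 247 were in the count table, 96 (38.9%) had 0 counts in every library, and 46 (18.6%) averaged at least 1 CPM. The 46 include Pira1, whose match to the count entry Pir is in doubt. The share at 1 CPM was 18.6% and 19.8% in Prdm16 libraries, against 18.2%, 17.0% and 17.8% in WT libraries. In constant H3K9me2 with LaminB1 in WT alone the share was 3.52% and 5.53% in Prdm16 libraries, against 3.52%, 3.02% and 4.02% in WT libraries. With LaminB1 in both it was 1.42% and 2.13% in Prdm16 libraries, against 0.709%, 2.13% and 1.42% in WT libraries. In each of the 5 libraries the share was thus higher in the regions than in constant H3K9me2 with LaminB1, and it was below the 29.6% to 32.1% found where H3K9me2 without LaminB1 was present in 1 to 5 libraries. Where neither mark was called the mean share was 72.9%. The 5 libraries share these genes, and the differences between classes were not tested. In bulk RNA, a low level in every cell and RNA from a few cells cannot be told apart.

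Detection followed promoter CpG number within the regions too. Of genes whose most CpG-rich start held at least 10 CpG, 22 of 67 (32.8%) reached a mean of 1 CPM, and of those with fewer 14 of 131 (10.7%). The same shares were 5 of 39 (12.8%) and 1 of 116 (0.862%) with LaminB1 in WT alone, and 1 of 31 (3.23%) and 0 of 86 with LaminB1 in both. They were 215 of 372 (57.8%) and 99 of 661 (15.0%) with H3K9me2 in 1 to 5 libraries and no LaminB1. These 4 classes had the same order for both kinds of promoter. With LaminB1 in either genotype and no H3K9me2 the order turned, since 22 of 48 genes with CpG-rich promoters (45.8%) and 20 of 1249 with fewer CpG (1.60%) were detected.

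**Figure D4:**
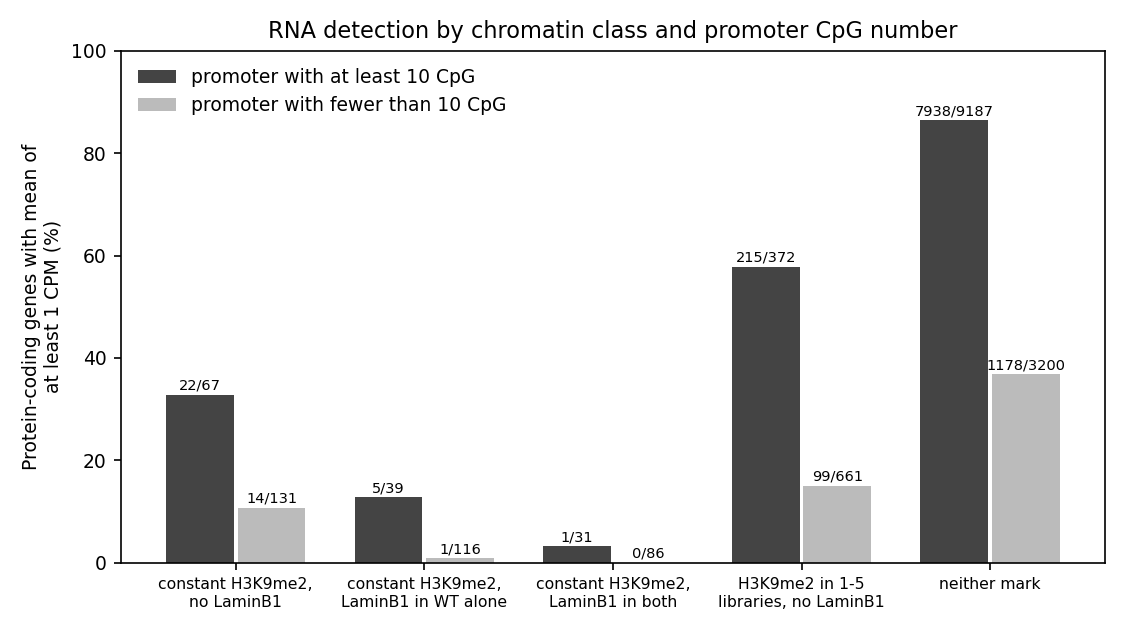
Share of protein-coding genes averaging at least 1 CPM (%) in 5 chromatin classes, for promoters with at least 10 CpG (dark) and fewer than 10 CpG (light), with gene counts above the bars. In constant H3K9me2 without LaminB1 the shares are 32.8% and 10.7%, above both constant classes with LaminB1 and below H3K9me2 present in 1 to 5 libraries.

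Place within a region also went with detection. Genes whose start lay in a region were detected in 24 of 163 cases (14.7%), those whose body lay inside but whose listed start lay outside in 12 of 35 (34.3%), and those with no listed start in 10 of 49 (20.4%). Genes spanning at least 200 kb were detected in 19 of 47 cases (40.4%) and shorter ones in 27 of 200 (13.5%). Genes with the whole body inside were detected in 21 of 166 cases (12.7%), and those partly inside in 25 of 81 (30.9%). CPM is not divided by transcript length, so the 1 CPM limit is not equal for genes of unlike length. The parts of gene length and of place in these shares were not tested. In isolated regions the share was 19 of 138 (13.8%), and in regions within 100 kb of LaminB1 it was 27 of 109 (24.8%), so nearness to a called LaminB1 domain did not go with fewer detected genes here. The start of a detected gene lay a median of 91.2 kb from the nearest region end (24 genes), beside 50.8 kb for the others (139 genes). These distances were not scaled to region length, which limits them, so they do not compare place within a region. The part of region length in this difference was not tested.

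The highest counts inside came from Eno1b, with 221 and 428 CPM in the libraries labelled Prdm16, against 133, 198 and 369 CPM in those labelled WT. Eno1b is a near-identical copy of the glycolytic enzyme gene Eno1, so its counts are uncertain. Sgcd, the δ-sarcoglycan of the muscle membrane complex, had 41.2 and 46.9 CPM in the libraries labelled Prdm16, against 24.6, 40.3 and 37.4 CPM in those labelled WT. Of its 1018 kb body 54.9% lay inside, and no listed start of Sgcd lay in a region. Zfp518b had 25.2 and 23.6 CPM in the libraries labelled Prdm16, against 22.4, 16.8 and 24.8 CPM in those labelled WT. Its whole body (chromosome 5, 38668484 to 38684984) and its start lay inside a constant region. Cers4, a ceramide synthase gene covered completely on chromosome 8 (4492818 to 4529603), had 20.8 and 25.9 CPM in the libraries labelled Prdm16, against 26.8, 23.2 and 10.5 CPM in those labelled WT. Pira1, a paired immunoglobulin-like receptor gene, was matched through a synonym to the count entry Pir, which may be another gene outside the regions. That entry had 29.6 and 27.4 CPM in the libraries labelled Prdm16, against 26, 45.6 and 39.7 CPM in those labelled WT. Tafa1, which encodes a secreted neuronal protein, had 19.1 and 11.2 CPM in the libraries labelled Prdm16, against 10.2, 12.2 and 9.52 CPM in those labelled WT. A share of 0.67 of its body lay inside, and no listed start of Tafa1 lay in a region. CPM values are not divided by transcript length, so they rank libraries within a gene and not genes against each other.

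Of the muscle genes inside, Actc1, Myh1 and Myh8 were high and low in the same libraries. Actc1 (chromosome 2, 114047282 to 114052875) had 102 and 79.4 CPM in the libraries labelled Prdm16, against 45.7, 49.9 and 114 CPM in those labelled WT. Gjd2, its neighbour in the same region with the CpG-rich promoter, had 0 counts in all 5. Myh1 had 7.70 and 12.6 CPM in the libraries labelled Prdm16, against 1.35, 3.15 and 9.61 CPM in those labelled WT. Myh8, the perinatal myosin, had 5.84 and 4.62 CPM in the libraries labelled Prdm16, against 0.77, 0.86 and 4.39 CPM in those labelled WT. For Actc1, Myh1 and Myh8, WT replicate 3 thus stood with the Prdm16 libraries, and of them only Myh8 had groups that did not overlap. The groups did not overlap for Sgcd either, whose highest WT value, 40.3 CPM, was in WT replicate 2. Myh2 had 0 counts in all 5, and Myh4 at most 0.533 CPM. Myh3, outside the domain, had 156 and 114 CPM in the libraries labelled Prdm16, against 34.3, 45.0 and 85.3 CPM in those labelled WT. The 7 satellite cell and myoblast markers summed to 167 and 213 CPM in the libraries labelled Prdm16, against 80.4, 83.7 and 240 CPM in those labelled WT, with 5 of 7 averaging at least 1 CPM and Pax7 at 0 in WT replicates 1 and 2. Their part in the levels of the muscle genes was not tested.

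In the protease region, Mcpt8 (56082163 to 56085499) had 11.8 and 57.7 CPM in the libraries labelled Prdm16, against 19.2, 5.59 and 17.8 CPM in those labelled WT. For Gzme, a granzyme gene, the values were 4.67 and 31.3 CPM in the libraries labelled Prdm16, against 7.89, 6.31 and 10.7 CPM in those labelled WT. Both were highest in Prdm16 replicate 2, the library that stood apart in Xist, and overlapped between the groups. The part of that difference in their levels was not tested. The other 11 genes of the cluster averaged below 1 CPM, and Mcpt4 and Gzmb had 0 counts in all 5. The granzyme genes are close paralogs, so reads may be split among them. The 5 leukocyte markers summed to 5.02 and 5.33 CPM in the libraries labelled Prdm16, against 4.23 to 5.51 CPM in those labelled WT. Of them, 2 averaged at least 1 CPM. Cd68 had 4.1 and 3.0 CPM in the libraries labelled Prdm16, against 3.4, 4.4 and 3.0 CPM in those labelled WT. For Csf1r the values were 0.82 and 2.13 CPM, against 0.77, 0.29 and 2.24 CPM. Ptprc reached at most 0.287 CPM, and Adgre1 and Cd3e were at 0 in all 5. Of 8 genes of mast cells and killer lymphocytes looked up after Mcpt8 was seen, Fcer1a, Tpsb2 and Prf1 were at 0 in all 5, Kit, Cpa3, Ms4a2 and Cma1 reached at most 0.355, 0.43, 0.373 and 0.533 CPM, and Hdc had 0.350 and 0.178 CPM in the libraries labelled Prdm16, against 0.673, 0.573 and 0.467 CPM in those labelled WT. Their part in the levels of Mcpt8 and Gzme was not tested.

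Clec14a, known from endothelial cells, had 32.0 and 9.77 CPM in the libraries labelled Prdm16, against 34.4, 48.0 and 3.27 CPM in those labelled WT. Prdm16 replicate 2 and WT replicate 3 were the low ones. The 5 endothelial markers summed to 7.00 and 4.97 CPM in the libraries labelled Prdm16, against 2.69 to 5.13 CPM in those labelled WT. Cdh5, the 1 marker averaging at least 1 CPM, had 5.49 and 4.26 CPM in the libraries labelled Prdm16. In those labelled WT it had 1.35, 1.58 and 2.80 CPM, so the groups did not overlap. Kdr reached at most 1.49 CPM, and Tie1 was at 0 in all 5. Their part in the level of Clec14a was not tested. Cnr1, the cannabinoid receptor CB1, had 20.5 and 17.6 CPM in the libraries labelled Prdm16, against 17.0, 3.44 and 3.17 CPM in those labelled WT, which did not overlap. Of its body 61.7% lay inside, and no listed start of Cnr1 lay in a region. Sox11, a transcription factor of neural and mesenchymal development, had 3.85 and 5.68 CPM in the libraries labelled Prdm16, against 1.35, 3.87 and 8.49 CPM in those labelled WT. Eya1, a transcriptional cofactor of muscle progenitors, had 1.40 and 2.13 CPM in the libraries labelled Prdm16, against 0.481, 0.717 and 1.40 CPM in those labelled WT. Epha4 had 3.50 and 0.71 CPM in the libraries labelled Prdm16, against 2.98, 3.73 and 3.55 CPM in those labelled WT. Ppargc1a had 1.28 and 0.888 CPM in the libraries labelled Prdm16, against 1.44, 1.43 and 1.59 CPM in those labelled WT, and the higher Prdm16 value was below the lowest WT value.

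**Figure D5:**
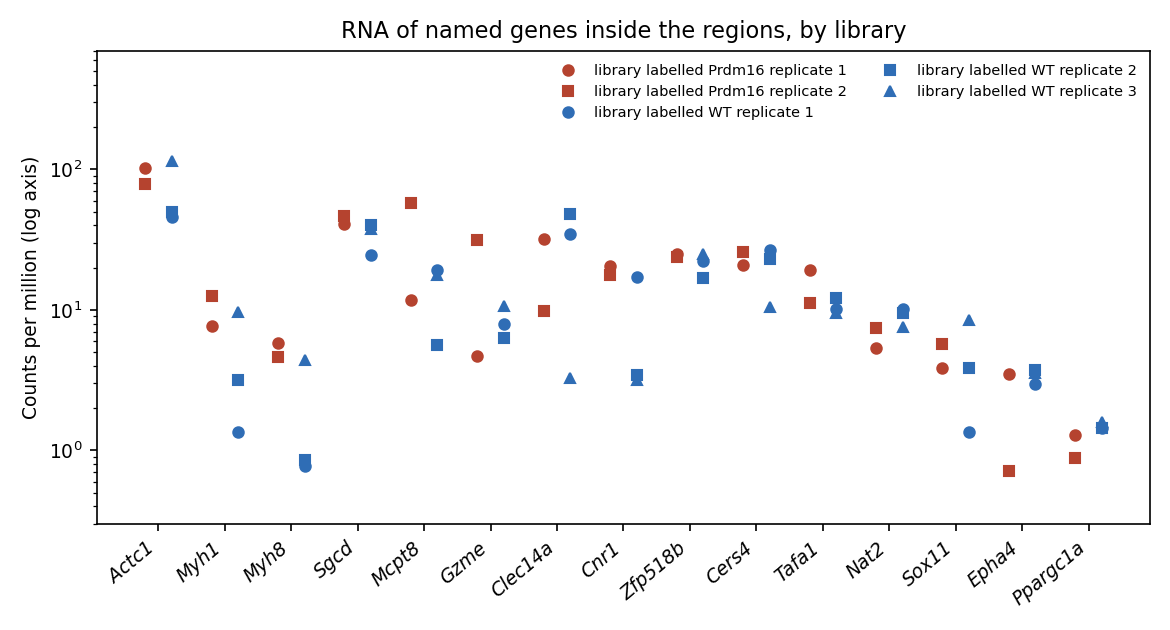
Level in CPM (log axis) of 15 genes with 0.5 or more of the body inside the regions in the 2 libraries labelled Prdm16 (red, left) and the 3 labelled WT (blue, right), 1 point per library. For Sgcd, Cnr1, Tafa1 and Nat2 no listed start lay in a region. WT replicate 3 lies with the Prdm16 libraries for Actc1, Myh1 and Myh8, and Prdm16 replicate 2 is highest for Mcpt8 and Gzme.

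No gene in the regions passed the test of genotype with the libraries as labelled. The labels of WT replicate 3 and Prdm16 replicate 1 are in doubt, so the absence of calls does not show equal levels between genotypes. Of the 1144 genes, 751 (65.6%) were matched to the count table by symbol or synonym. Of these, 67 passed the filter on low counts, 49 of them protein-coding. The 67 include the entry Pir, whose match to Pira1 is in doubt. With edgeR's quasi-likelihood test, two-sided and adjusted over all 15240 genes by Benjamini-Hochberg, 0 of the 67 were called, against a background of 0.0% of all genes tested, and their smallest adjusted p was 0.99957. At an unadjusted p under 0.05 edgeR gave 0 of the 67, beside 2.48% of all. DESeq2 called 0 members (background 0.00311% of 32193 genes), limma-voom 0 (background 0.0%), and edgeR with no filter on low counts 0 (background 0.0777%). Among the 67, 42 had a positive and 25 a negative log2 fold change of Prdm16 over WT; the median was 0.20, beside 0.00 over all genes tested. Both Prdm16 libraries lay above all WT libraries for 9 genes (13.4%), beside 8.83% of all genes tested, and below all WT libraries for 5 (7.46%), beside 8.96%. Neither share is read as a result about these genes.

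Among protein-coding members with named symbols, the smallest p-values were those of Myh8, with a log2 fold change of 1.35 (SE 0.76), and Cnr1, with 1.26 (SE 0.74). Each had an adjusted p of 0.9996 by edgeR. Mcpt8 had a log2 fold change of 1.27 (SE 0.79), Plxna4, a plexin of axon guidance, 1.10 (SE 0.74), Gzme 1.09 (SE 0.71) and Tafa1 0.52 (SE 0.34). Among lower values were Nat2, an arylamine acetyltransferase gene, with -0.50 (SE 0.37), Epha4 with -0.64 (SE 0.65) and Ppargc1a with -0.43 (SE 0.58). Parm1 had -0.45 (SE 0.65) and the synaptic scaffold gene Dlgap1 -0.31 (SE 0.48). The entry Pir had -0.38 (SE 0.28), and its match to the member Pira1 is in doubt. None passed the test. In the authors' deposited table, 3 of the 17 members with an adjusted p were called, beside 7.55% of the 6237 genes with one. The called members were Clec14a with a log2 fold change of -2.47, Eno1b with 0.97 and Gzme with 1.4. The p-values of that table matched the exchanged labels, under which the 2 libraries low in Clec14a form its Prdm16 pair.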

How the data were processed

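Domains were deposited as 1 list per library, with a position and a score per domain, as deposited by the authors. Coordinates were taken as mm10 (GRCm38), since the submitters' processing notes name mm10, dm6 and GRCm38 without a role. The score is the authors' own value; the sources used here do not name the caller. Per the submitters' processing notes, Bowtie 1.2.2, STAR 2.7, featureCounts and DESeq2 1.20 were used. The deposited RNA table held whole counts per gene. The authors also deposited their comparison, with a normalized signal averaged per gene, log2 fold changes, their standard errors and p-values.

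H3K9me2 domains ended on multiples of 3 kb and LaminB1 domains on multiples of 4 kb, so bins of 1 kb held them exactly. Autosomes ran from the first to the last gene or domain, and X was not analysed here. Depth of the domain libraries is unknown. Genes came from RefSeq (GRCm38.p6), with at least 0.5 of the body in a class. Counts were normalized by TMM and tested in edgeR 4.0.16 (R 4.3.3, default filter, robust quasi-likelihood, threshold 0.05), with DESeq2 1.42.0 and limma 3.58.1 as alternatives. The fit was also run on simulated counts, as a check of the code. Their spread between libraries was fixed and not taken from these data, so that run does not measure power here. The labels do not say whether replicates are separate animals, so p-values reflect the spread between samples. The 2 Prdm16 libraries differ in Xist, so their spread is not that of repeats of 1 sample; for the WT libraries it may be technical. RPKM could not be made because exon lengths were not at hand, so levels are CPM. Python 3.11.15 with numpy 2.4.6, pandas 2.3.3 and matplotlib 3.10.9 was used.

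Regions were named by a rule taking the 8 longest and the 5 longest isolated, of which 1 is not reported here. Genes were named by the 10 highest mean CPM, the 6 smallest p each way, the authors' calls, up to 3 per family, and listed muscle, fat, FAP, H3K9 and lamina genes. Mean CPM and p were ranked among protein-coding genes with named symbols only. Gene clusters, Gjd2, Myh1, Myh4, Cd200 and the genes with TATAAA were added after their values were seen. The regions and all lists were chosen with earlier results of these data known.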

Additional observations from a re-analysis of the deposited data

How the results depend on the processing

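The total length of the regions moved most with the WT LaminB1 list, the score, the distance to LaminB1 and Prdm16 H3K9me2 replicate 1. Leaving out 1 of the 8 domain libraries at a time gave 133 to 231 Mb against 132 Mb, the highest without the WT LaminB1 library and the next, 196 Mb, without Prdm16 H3K9me2 replicate 1. Keeping only H3K9me2 domains with scores above the median of their list left 87.9 Mb, and keeping only regions with no LaminB1 domain within 100 kb left 65.2 Mb. The share of protein-coding genes averaging at least 1 CPM, 18.6%, was 19.8% when detection meant passing the filter on low counts, 14.5% with at least 0.9 of the gene body inside, 16.0% with the start in a region and 13.8% in regions with no LaminB1 within 100 kb. The cause of these shifts was not tested. The count of protein-coding genes inside was 189 and 191 under the stricter rules, against 250.

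With the replicate number as a block, edgeR called 0 member genes, as in every other fit, including those leaving out 1 library (range 0 to 0). The block moved the calls over all genes to 1 from 0. Only 2 numbers are shared, and nothing in the labels says that they pair samples. No paired analysis was possible for domains because the rule used all 6 libraries. Without both libraries whose labels are in doubt, a setting chosen after seeing the data, 0 of 64 members and 93 of all genes were called. That fit has 1 Prdm16 library, assumed to vary like the 2 WT libraries that alone give the spread. That library is the one low in Xist, so genotype and this difference cannot be told apart in its calls. Of 175 log2 fold changes of 16 genes under alternatives, 166 kept their sign and 9 reversed. Over the fits leaving out libraries, the log2 fold change ran from -0.27 to 2.17 for Mcpt8, from -0.82 to 2.11 for Gzme, from -2.27 to 0.047 for Epha4, from -0.95 to 0.027 for Dlgap1, from -0.071 to 1.35 for Eno1b, from -2.10 to 0.18 for Clec14a and from -0.021 to 0.86 for Tafa1. Of these, Mcpt8, Gzme, Epha4, Dlgap1, Eno1b and Clec14a turned without Prdm16 replicate 2, Clec14a also without WT replicate 2 (0.16) and with limma-voom (0.25), and Tafa1 without both doubtful libraries. The alternative with a pseudocount was not run, since it needs RPKM.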
